A study of Arabidopsis thaliana with 18 samples.

Results

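Nitrate and ammonium enter Arabidopsis roots and move through them by dedicated membrane transporters, and 10 of the genes that encode them were followed here across 9 groups of root libraries. The members are defined by their locus identifiers, in a choice made with earlier results of these data known, and are 10 of the 33602 loci in the deposited count files. They are the nitrate transporters NRT1.1, NRT1.5, NRT1.8, NRT2.1, NRT2.2 and NRT2.4 and the ammonium transporters AMT1;1, AMT1;2, AMT1;3 and AMT1;5. All 10 loci carry these names in the RefSeq annotation of TAIR10.1, with NRT2.1 spelled NRT2:1 there.

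RNA came from the tip-side section of primary roots of 7-day-old Arabidopsis thaliana seedlings of the Col-0 background, grown upright on MS medium in continuous light. In the first set, sequenced with 101 bp reads, wild-type Col-0 was treated for 4 h with mock solution, with 100 nM brassinolide (BL, a brassinosteroid hormone), with 5 µM IAA (indole-3-acetic acid, an auxin) or with both. The same set held bri1-116, a mutant of the brassinosteroid receptor gene BRI1, and bri1-116;bzr1-1D, called the double mutant below, which adds the gain-of-function allele bzr1-1D of the brassinosteroid-activated transcription factor BZR1. Neither mutant is labelled as treated, so their comparisons with mock-treated Col-0 also compare unhandled with handled seedlings. The second set, sequenced with 36 bp reads, held untreated wild-type Col-0, dwf4 (a mutant in a brassinosteroid biosynthesis gene, allele not named in the labels) and dwf4 given 100 nM BL for 4 h. No mock-treated dwf4 is among the samples, so the effects of BL and of handling cannot be told apart in that line.

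Each group had 2 libraries, which the labels do not describe as separate cultures. The p-values thus measure only the spread between libraries within groups, which may be technical. That spread was estimated over all groups of a fit and drawn toward that of other genes. Counts in genes ran from 11225390 to 36431707 per library. Levels are in CPM, the counts of a gene relative to the library's scaled total, computed within a read length set, and a count of 3 corresponded to 0.0824 to 0.267 CPM. Fold changes and p-values come from the quasi-likelihood test of edgeR, adjusted over all genes tested by the Benjamini-Hochberg method, and a gene is called when its adjusted p is below 0.05. The sum of 5 shoot photosynthesis markers was 2.89 to 72.4 CPM and was highest in the double mutant, at 63.1 to 72.4 CPM against 10.3 to 13.5 CPM in mock. The double mutant sum was mostly LHCB1.3 and RBCS1A, at means of 46.2 and 20.9 CPM. LHCB2.2 was also highest there, at a mean of 0.448 CPM. RBCS3B (0.122 CPM there, 0.786 with IAA and BL) and CA1 (0.0833 there, 0.0931 in mock) were not. The 5 root meristem markers were all counted, at a sum of 116 to 181 CPM, and so were the root hair, endodermis, xylem and pericycle markers. In bulk RNA, fewer cells of a type and less RNA per cell cannot be told apart.

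Plants take up nitrate by low-affinity transporters of the NRT1 (NPF) family and by high-affinity transporters of the NRT2 family, which work with the partner protein NAR2.1. Nitrate for the shoot is loaded into the xylem from the stele, and part of it is taken back from the sap on the way up. Ammonium enters mainly through high-affinity AMT1 proteins in the outer root cells and the endodermis, and is assembled into glutamine and asparagine.

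Several members share sequence or position with another gene, which bears on what their counts can show. NRT2.1 (AT1G08090, chr1:2524023-2526322, plus strand, 3 exons) and NRT2.2 (AT1G08100, chr1:2527170-2529120, minus strand, 3 exons) lie 847 bp apart, tail to tail, in TAIR10.1. Their coding sequences are 89.4% identical, with a longest shared run of 170 bp, and 12.7% of the 36-base words in NRT2.1 exons and 15.9% of those in NRT2.2 exons occur elsewhere in the genome. For words of 101 bases the shares were 3.87% and 4.97%. The shared run is printed in capitals, with 12 flanking bases on each side, because reads that lie wholly inside it cannot be assigned to one gene of the pair.
NRT2.1: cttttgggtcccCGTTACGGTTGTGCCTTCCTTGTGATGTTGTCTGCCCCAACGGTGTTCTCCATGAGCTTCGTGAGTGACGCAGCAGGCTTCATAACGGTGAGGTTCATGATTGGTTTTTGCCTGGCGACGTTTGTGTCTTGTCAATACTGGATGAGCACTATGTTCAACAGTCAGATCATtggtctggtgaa
NRT2.2: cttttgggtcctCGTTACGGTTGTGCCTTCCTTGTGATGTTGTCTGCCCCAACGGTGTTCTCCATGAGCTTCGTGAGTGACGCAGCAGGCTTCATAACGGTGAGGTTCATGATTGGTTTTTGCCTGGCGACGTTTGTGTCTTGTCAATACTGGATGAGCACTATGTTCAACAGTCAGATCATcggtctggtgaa
AMT1;3 (AT3G24300, chr3:8805519-8807460, minus strand, 1 exon) and AMT1;5 (AT3G24290, chr3:8801400-8802890, minus strand, 1 exon) are also tandem neighbours, 2628 bp apart. Their coding sequences are 87.5% identical, but the longest shared run is 46 bp, and 0.577% and 0.755% of their 36-base words occur elsewhere. No word of 101 bases did. The stretch around that run is printed for comparison, with the run in capitals.
AMT1;3: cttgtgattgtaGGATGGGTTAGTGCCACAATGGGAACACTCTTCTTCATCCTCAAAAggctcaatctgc
AMT1;5: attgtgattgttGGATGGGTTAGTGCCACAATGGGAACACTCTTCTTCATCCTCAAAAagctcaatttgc
The other members had no 36-base word elsewhere in the genome. They are NRT1.1 (AT1G12110, chr1:4105223-4109601, plus strand), NRT1.5 (AT1G32450, chr1:11715147-11719988, minus strand), NRT1.8 (AT4G21680, chr4:11517353-11519805, minus strand), NRT2.4 (AT5G60770, chr5:24444365-24447127, plus strand), AMT1;1 (AT4G13510, chr4:7858183-7860288, plus strand) and AMT1;2 (AT1G64780, chr1:24060640-24062804, minus strand). The single exon of AMT1;1 is overlapped over 1709 bases, 98.4% of its length, by AT4G13505, a long non-coding RNA on the opposite strand. The strand setting of the counting is not given in the sources used here, so the counts of AMT1;1 are uncertain and may be too low. AT4G13505 itself had 0 to 2 counts per library.

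**Figure D1:**
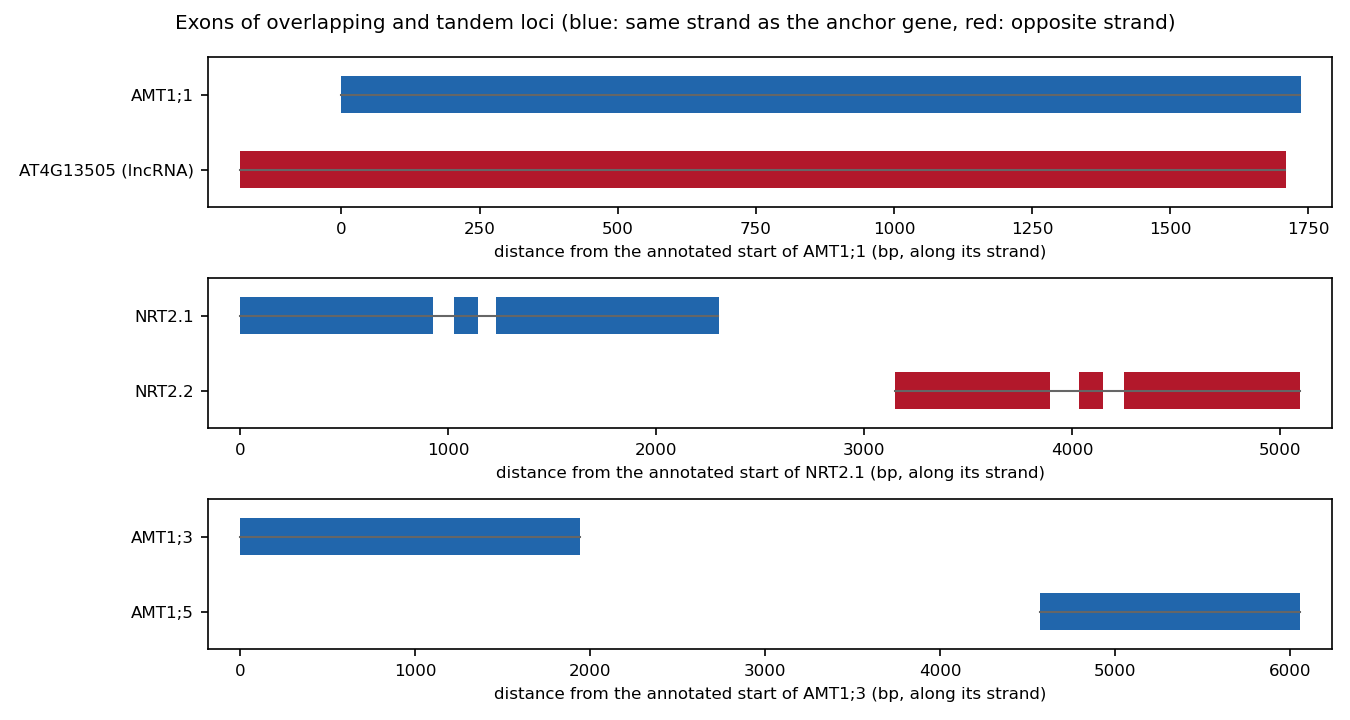
Exons of the overlapping and tandem loci, drawn as distance in bp from the annotated start of the upper gene of each panel along its strand, in TAIR10.1. AT4G13505 covers 1709 bases of the AMT1;1 exon on the opposite strand, while NRT2.1 and NRT2.2 are separated by 847 bp and AMT1;3 and AMT1;5 by 2628 bp.

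Of the 10 members, 7 had enough counts to be tested in the 101 bp set and 6 in the 36 bp set. NRT2.2 had 0 counts in all 18 libraries, which allows up to 0.00900 CPM over the libraries together. NRT2.4, a high-affinity transporter known from nitrogen-starved roots, had 27 counts in all and at most 6 in a library, and AMT1;5 had 8 counts in 4 libraries. These 3 were not tested. Per kilobase of exon, mock-treated Col-0 had 399 CPM of NRT1.5, 306 of NRT1.1, 44.0 of AMT1;3, 38.8 of AMT1;2, 0.486 of NRT1.8 and 0.0621 of NRT2.1. The order by length-scaled level thus put the xylem loader and the dual-affinity uptake transporter first and the inducible NRT2.1 near the detection limit.

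**Figure D2:**
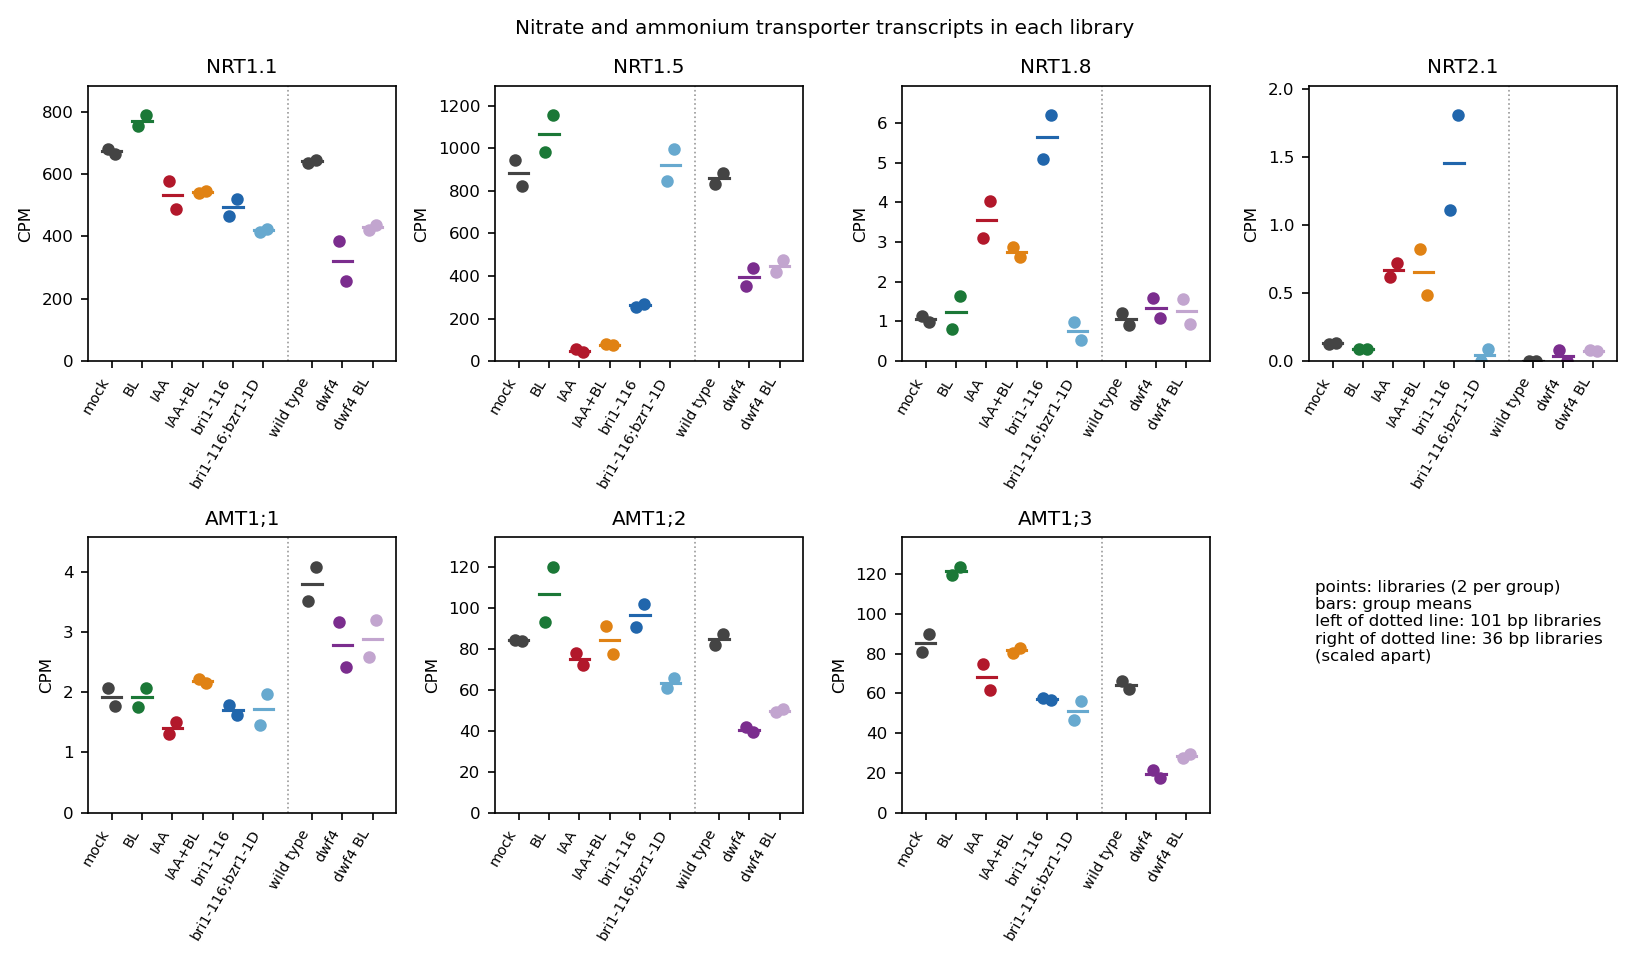
CPM of the 7 tested members in each of the 18 libraries, 1 point per library and a bar at each group mean, with the 101 bp and 36 bp libraries scaled apart. NRT1.5 fell from 824 to 943 CPM in mock to 41.9 to 57.5 CPM with IAA, while NRT1.8 and NRT2.1 were highest in bri1-116.

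BL raised 2 of the 7 tested members in Col-0 and lowered 0, while 6.37% of all 20644 genes rose and 6.59% fell (13% in all). IAA raised 2 (NRT1.8 and NRT2.1) and lowered 3, where 29.9% of all genes rose and 29.3% fell (59.3%). NRT2.1 had enough counts to be tested only through libraries in which it was high, IAA-treated ones among them. Its calls in this paragraph are therefore a description and not a result. Without them, NRT1.8 is the only raised member wherever NRT2.1 is named here. IAA with BL raised 2 (NRT1.8 and NRT2.1) and lowered 2 against mock, where 26% rose and 26.1% fell (52%). Adding BL to IAA raised 1 and lowered 0, where 5.4% rose and 5.13% fell (10.5%). Adding IAA to BL raised 2 (NRT1.8 and NRT2.1) and lowered 4, where 28.5% rose and 27.8% fell (56.2%). The test of whether BL acted differently with IAA (the interaction) called 0 of 7 members with edgeR, 2 had an unadjusted p below 0.05, and DESeq2 also called 0. Of all genes 0.606% were called higher and 0.838% lower (1.44%). Without mock replicate 1, mock replicate 2 or BL replicate 2 the count for BL was 1, and for BL added to IAA it was 2 without IAA replicate 1 and 0 without IAA replicate 2. The comparisons with mock share the same 2 control libraries.

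Among the genotypes, bri1-116 had 2 members higher (NRT1.8 and NRT2.1) and 3 lower than mock-treated Col-0. Of all genes 16.7% were higher and 19.4% lower there (36.1%). The double mutant had 1 higher and 4 lower (NRT2.1 among them) than bri1-116, where 21.2% of genes were higher and 19.1% lower (40.3%). Against Col-0 it had 0 higher and 3 lower, where 8.03% were higher and 8.17% lower (16.2%). In the 36 bp set dwf4 had 0 higher and 4 lower of 6 tested, where 4.79% of 19558 genes were higher and 7.93% lower (12.7%). BL in dwf4 raised 2 and lowered 0, where 7.86% rose and 5.45% fell (13.3%). BL-treated dwf4 had 0 higher and 4 lower than wild type, where 9.63% were higher and 9.16% lower (18.8%). The difference between the BL responses of dwf4 and Col-0 was called for 0 of 7 members by edgeR and by DESeq2, with 0 at an unadjusted p below 0.05, and of all genes 0.633% were called higher and 0.304% lower (0.937%). The count for BL in dwf4 was 1 without dwf4 BL replicate 1 and 0 without dwf4 BL replicate 2, and 1 member passed the difference in BL response without dwf4 replicate 1. NRT2.1 passed the low-count filter only through the IAA-treated and bri1-116 libraries, where it was high. Its calls in the counts above are therefore a description and not a result. These counts do not stand for all 10 members.

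**Figure D3:**
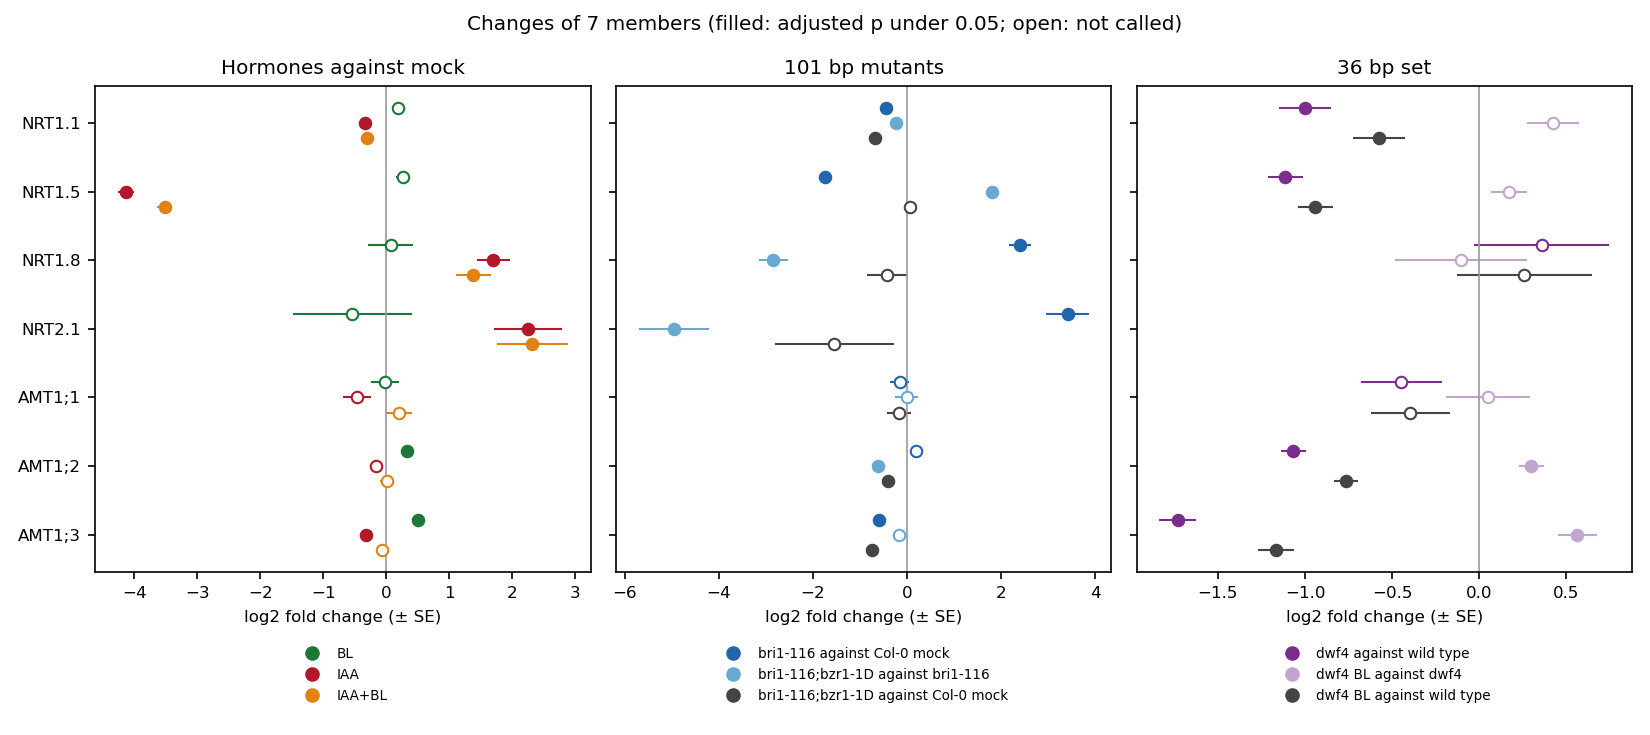
Log2 fold changes with their standard errors for the 7 tested members, by treatment and genotype, with filled points for called genes and open points for the others. The largest decrease with IAA is that of NRT1.5 at −4.13, and in dwf4 the lowest of the 4 called values is that of AMT1;3 at −1.73. NRT2.1 entered the fit only through libraries in which it was high, so its filled points are a description and not a result.

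NRT1.1, the dual-affinity nitrate transporter that also acts as a nitrate sensor, was lower with IAA and in every mutant. It read 682 and 664 CPM in mock, 753 and 789 with BL, 579 and 489 with IAA, and 540 and 547 with IAA and BL. In bri1-116 it read 466 and 521 CPM, in the double mutant 415 and 424. The mock libraries lay above all IAA-treated and mutant libraries and below both BL libraries. IAA lowered NRT1.1, with a log2 fold change of −0.33 ± 0.07 (SE throughout, adjusted p = 0.00069), or −0.22 without IAA replicate 2 (adjusted p = 0.023). Against mock, the change was −0.45 ± 0.07 in bri1-116 (adjusted p = 0.0001) and −0.68 ± 0.07 in the double mutant (adjusted p = 7.7e-06). The value with BL alone was 0.20 ± 0.07 (adjusted p = 0.080). The double mutant was lower than bri1-116, at −0.23 (adjusted p = 0.015), a call lost without bri1-116 replicate 2 (−0.15, adjusted p = 0.19), without double mutant replicate 1 (−0.25, adjusted p = 0.056) or without double mutant replicate 2 (−0.25, adjusted p = 0.057).

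In the 36 bp set, NRT1.1 read 635 and 647 CPM in wild type, 385 and 257 in dwf4, and 422 and 438 in dwf4 with BL. The dwf4 libraries were the lowest and also the most unlike each other. NRT1.1 was lower in dwf4, at −0.997 ± 0.15 (adjusted p = 0.0041), which was not called without wild-type replicate 2 (−0.99, adjusted p = 0.056). BL in dwf4 gave 0.42 ± 0.15 (adjusted p = 0.10), and 0.75 without dwf4 replicate 1 (adjusted p = 0.00015). The comparison of BL-treated dwf4 with wild type was −0.58 (adjusted p = 0.029). It was −0.59 without wild-type replicate 1 (adjusted p = 0.15), −0.56 without wild-type replicate 2 (adjusted p = 0.16), −0.55 without dwf4 BL replicate 1 (adjusted p = 0.14) and −0.60 without dwf4 BL replicate 2 (adjusted p = 0.094), so none of these passed.

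NRT1.5, which loads nitrate from stele cells into the xylem, had the largest response to IAA of the members. It read 943 and 824 CPM in mock, 983 and 1154 with BL, 57.5 and 41.9 with IAA, and 79.9 and 74.1 with IAA and BL. Both IAA-treated pairs lay far below mock, with no overlap. IAA lowered NRT1.5 17.8-fold (log2 fold change −4.13 ± 0.13, adjusted p = 1.0e-13), which ranked 146 by size among 20644 genes. With IAA present, BL raised it by 0.61 ± 0.12 (adjusted p = 0.004), a change of 0.42 (adjusted p = 0.055) without IAA replicate 2. The value for BL alone was 0.27 ± 0.11 (adjusted p = 0.11), and the interaction was 0.34 ± 0.17 (adjusted p = 0.45).

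In the mutants NRT1.5 read 256 and 268 CPM in bri1-116 and 844 and 998 CPM in the double mutant. bri1-116 was 3.37-fold below mock (−1.75 ± 0.11, adjusted p = 8.9e-09), and the double mutant was above bri1-116 by 1.81 ± 0.11 (adjusted p = 5.2e-09). The double mutant and mock libraries overlapped, with a difference of 0.06 ± 0.11 (adjusted p = 0.77). In the 36 bp set the gene read 833 and 885 CPM in wild type, 355 and 440 in dwf4 and 418 and 477 with BL. The dwf4 decrease was −1.11 ± 0.10 (adjusted p = 0.00052), and 4 h of BL gave 0.17 ± 0.10 (adjusted p = 0.31). The pericycle and stele transport markers PHO1, SKOR and BOR1 summed to 447 to 453 CPM in mock and 141 to 146 with IAA. The mock sum was mostly PHO1, at a mean of 367 CPM. With IAA 2 of 3 were lower, PHO1 and SKOR (−2.44 and −4.59), where 29.3% of all genes were lower. BOR1 was not called with IAA (0.17 ± 0.08, adjusted p = 0.090). In the mutants the 3 markers did not all go the way of NRT1.5. In bri1-116 PHO1, a phosphate exporter, was lower (−0.56 ± 0.08, adjusted p = 5.0e-05), while SKOR, a potassium channel of the stele, and BOR1, a boron exporter, were higher (0.82 and 0.69), and the sum was 361 to 410 CPM. In the double mutant against bri1-116 PHO1 was higher (0.80) and SKOR and BOR1 lower (−0.69 and −1.05), and the sum was 492 to 514 CPM. In dwf4 PHO1 and BOR1 were lower than in wild type (−0.51 and −0.40) and SKOR higher (0.79), and the sum was 357 to 368 CPM against 478 to 502. The part of these markers in the result was not tested. The 5 xylem markers, with none at 0, summed to 423 to 429 CPM in mock, 223 to 225 in bri1-116 and 418 to 422 in the double mutant. With BL the sum was 452 to 478 CPM, with IAA 362 to 397 and with IAA and BL 391 to 397. In the 36 bp set it was 430 to 459 CPM in wild type, 295 to 304 in dwf4 and 333 to 339 in dwf4 with BL. Their part in the result was not tested either.

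NRT1.8, which takes nitrate back from the xylem sap, changed in the opposite direction to NRT1.5 with IAA and in bri1-116, from a far lower level. It read 1.14 and 0.985 CPM in mock, 0.810 and 1.65 with BL, 3.10 and 4.03 with IAA, and 2.87 and 2.63 with IAA and BL. In bri1-116 it read 5.08 and 6.19 CPM and in the double mutant 0.996 and 0.540. IAA-treated and bri1-116 libraries all lay above every mock, BL and double mutant library. The rise was 1.705 ± 0.26 with IAA (adjusted p = 2.4e-05), 1.39 ± 0.28 with IAA and BL (adjusted p = 0.00056) and 2.41 ± 0.24 in bri1-116 (adjusted p = 7.1e-07). The double mutant was below bri1-116, at −2.84 ± 0.31 (adjusted p = 2.4e-06). Adding IAA to BL gave 1.31 (adjusted p = 0.0018), and 0.74 without BL replicate 1 (adjusted p = 0.11). In the 36 bp set its levels ran from 0.908 to 1.58 CPM, wild type and dwf4 overlapped, and dwf4 differed by 0.36 ± 0.39 (adjusted p = 0.61).

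NRT2.1, the main high-affinity nitrate uptake transporter, was close to the detection limit in most groups and highest in bri1-116. Its counts were 3 and 4 in mock, 2 and 1 with BL, 22 and 12 with IAA, and 18 and 7 with IAA and BL. bri1-116 gave 29 and 51 counts, at 1.108 and 1.803 CPM, and the double mutant 0 and 1. The bri1-116 and IAA-treated libraries lay above all others of the 101 bp set. Pooled and scaled for depth, bri1-116 held 11.2 times the mock level (95% exact interval from counting error 5.17 to 28.6) and IAA 4.92 times (2.15 to 13.2). bri1-116 held 35.5 times the double mutant level, from 80 counts against 1 (6.19 to 1420). IAA with BL held 5.21 times the mock level (2.19 to 14.3). BL alone held 0.675 times the mock level (0.113 to 2.96) and the double mutant 0.314 times (0.00697 to 2.45), with intervals that include 1. NRT2.1 entered the test across genes only through the IAA-treated and bri1-116 libraries, where it was high. Its ratios and their intervals are therefore a description and not a test, and its fitted p-values are not given. The 36 bp libraries held 0 or 1 count each, so no difference was detectable at that depth. NRT2.4 had 6 and 5 counts in bri1-116 and 1 and 2 in mock, a ratio of 3.58 with an interval of 0.945 to 19.98.

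The partner of the NRT2 transporters, NAR2.1 (AT5G50200, annotated as WR3 with NRT3.1 as a synonym), was counted in every group. It had 36.6 and 40.3 CPM as the lower and higher mock library, 62.6 and 67.9 with IAA, 45.7 and 48.1 in bri1-116 and 16.9 and 20.6 in the double mutant. IAA raised it by 0.77 ± 0.09 (adjusted p = 9.5e-07), and bri1-116 was 0.28 ± 0.09 above mock (adjusted p = 0.018). The double mutant was below mock, at −1.05 ± 0.11 (adjusted p = 8.2e-06), and dwf4 was below wild type, at −1.09 ± 0.17 (adjusted p = 0.0045).

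The root ammonium transporters AMT1;2, placed by earlier work mainly in the endodermis and cortex, and AMT1;3, in the outer cells, were higher with BL and lower in dwf4. AMT1;3 read 80.8 and 90.1 CPM in mock, 119 and 124 with BL, 74.6 and 61.8 with IAA, and 80.4 and 83.0 with IAA and BL. The BL libraries were the highest and the IAA libraries the lowest of these 4 groups. BL raised AMT1;3 by 0.50 ± 0.08 (adjusted p = 0.00089), and IAA lowered it, at −0.31 ± 0.08 (adjusted p = 0.004). The IAA call was lost without mock replicate 2 (−0.24, adjusted p = 0.062) or without IAA replicate 2 (−0.20, adjusted p = 0.078). With both hormones the gene read −0.07 ± 0.08 against mock (adjusted p = 0.53) and −0.57 ± 0.09 against BL alone (adjusted p = 2.4e-05). The interaction was −0.26 ± 0.12 (adjusted p = 0.42).

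AMT1;3 read 57.4 and 56.7 CPM in bri1-116 and 46.6 and 55.9 in the double mutant, all below mock. The changes from mock were −0.58 ± 0.08 (adjusted p = 4.4e-05) and −0.74 ± 0.09 (adjusted p = 4.0e-05), and the double mutant differed from bri1-116 by −0.16 ± 0.09 (adjusted p = 0.19). In the 36 bp set it read 66.0 and 62.1 CPM in wild type, 21.4 and 17.2 in dwf4, and 27.3 and 29.7 in dwf4 with BL. The 3 groups did not overlap. dwf4 was 3.33-fold below wild type (−1.73 ± 0.11, adjusted p = 0.00011). BL in dwf4 raised it by 0.56 ± 0.11 (adjusted p = 0.013), or 0.50 without dwf4 BL replicate 2 (adjusted p = 0.078), and BL-treated dwf4 was still below wild type, at −1.17 ± 0.10 (adjusted p = 0.00024). Its BL responses in dwf4 and Col-0 differed by 0.06 ± 0.16 (adjusted p = 0.94).

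AMT1;2 read 84.1 CPM in both mock libraries, 93.2 and 120 with BL, 77.9 and 72.3 with IAA and 91.1 and 77.4 with IAA and BL. The BL libraries were above mock but far apart from each other. The rise with BL was 0.33 ± 0.10 (adjusted p = 0.037). It was 0.53 without BL replicate 1 (adjusted p = 0.0019), 0.15 without BL replicate 2 (adjusted p = 0.37), and was not called without mock replicate 1 (0.33, adjusted p = 0.13) or mock replicate 2 (0.33, adjusted p = 0.12). Adding IAA to BL gave −0.32 ± 0.10 (adjusted p = 0.012), with −0.52 without BL replicate 1 (adjusted p = 0.00024), −0.14 without BL replicate 2 (adjusted p = 0.22) and −0.22 without IAA and BL replicate 2 (adjusted p = 0.13).

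In bri1-116 the gene read 90.7 and 102 CPM, a value of 0.20 ± 0.10 against mock (adjusted p = 0.12). The double mutant read 61.0 and 65.6 CPM, below both. Its log2 fold change was −0.61 ± 0.10 against bri1-116 (adjusted p = 0.0002) and −0.41 ± 0.10 against mock (adjusted p = 0.013), the latter −0.37 without double mutant replicate 1 (adjusted p = 0.11). In the 36 bp set AMT1;2 read 82.1 and 87.4 CPM in wild type, 41.8 and 39.2 in dwf4 and 49.2 and 50.5 with BL, with no overlap. The dwf4 decrease was −1.07 ± 0.07 (adjusted p = 0.00013). The rise with BL in dwf4 was 0.30 ± 0.07 (adjusted p = 0.028). It was not called without dwf4 replicate 2 (0.25, adjusted p = 0.085), dwf4 BL replicate 1 (0.32, adjusted p = 0.085) or dwf4 BL replicate 2 (0.28, adjusted p = 0.11). The endodermis markers summed to 237 to 240 CPM in wild type, 154 to 174 in dwf4 and 206 to 231 in dwf4 with BL. Of these markers, ESB1 is overlapped by another locus over 84.3% of its exons. In the 101 bp set the sum was 399 to 429 CPM in mock, 435 to 462 with BL, 260 to 297 with IAA and 277 to 321 with both. It was 215 to 219 CPM in bri1-116, where AMT1;2 was not called against mock, and 247 to 280 in the double mutant. Their part in the result was not tested. AMT1;1 had 1.31 to 4.09 CPM in the 18 libraries and was called in none of the 13 comparisons. With the overlap noted above, the lack of calls does not show that its transcript was unchanged.

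Most of the 9 listed genes that reduce nitrate or supply the reductant were lower in each mutant, as counts beside those of all genes and with no test of the group. All 9 were lower in the double mutant than in mock, where 8.17% of all genes were lower, with a median log2 fold change of −0.71 against 0.00 for all genes. NIA1, the minor nitrate reductase, read 172 and 185 CPM there against 364 and 390 in mock as lower and higher library (−1.08 ± 0.11, adjusted p = 5.0e-06), and NIR1, nitrite reductase, fell by 0.86 (log2 fold change −0.86 ± 0.08, adjusted p = 1.5e-06). bri1-116 had 7 lower and 1 higher, where 19.4% of all genes were lower and 16.7% higher, with a median of −0.42. The gene that was higher was the major nitrate reductase NIA2, at 777 and 850 CPM against 651 and 659 in mock. In dwf4, 8 of 9 were lower than in wild type, where 7.93% of all genes were lower, among them the glucose-6-phosphate dehydrogenase G6PD3 at −0.90 ± 0.07 (adjusted p = 0.00021). BL in dwf4 raised 4 of 9, where 7.86% of all genes rose, including G6PD3 by 0.58 ± 0.07 (adjusted p = 0.0011). In Col-0 the median change of the 9 with BL was 0.02. The difference between the 2 BL responses was called for 1 of 9, G6PD3 (0.56 ± 0.12, adjusted p = 0.037), where 0.633% of all genes were called higher and 0.304% lower.

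**Figure D4:**
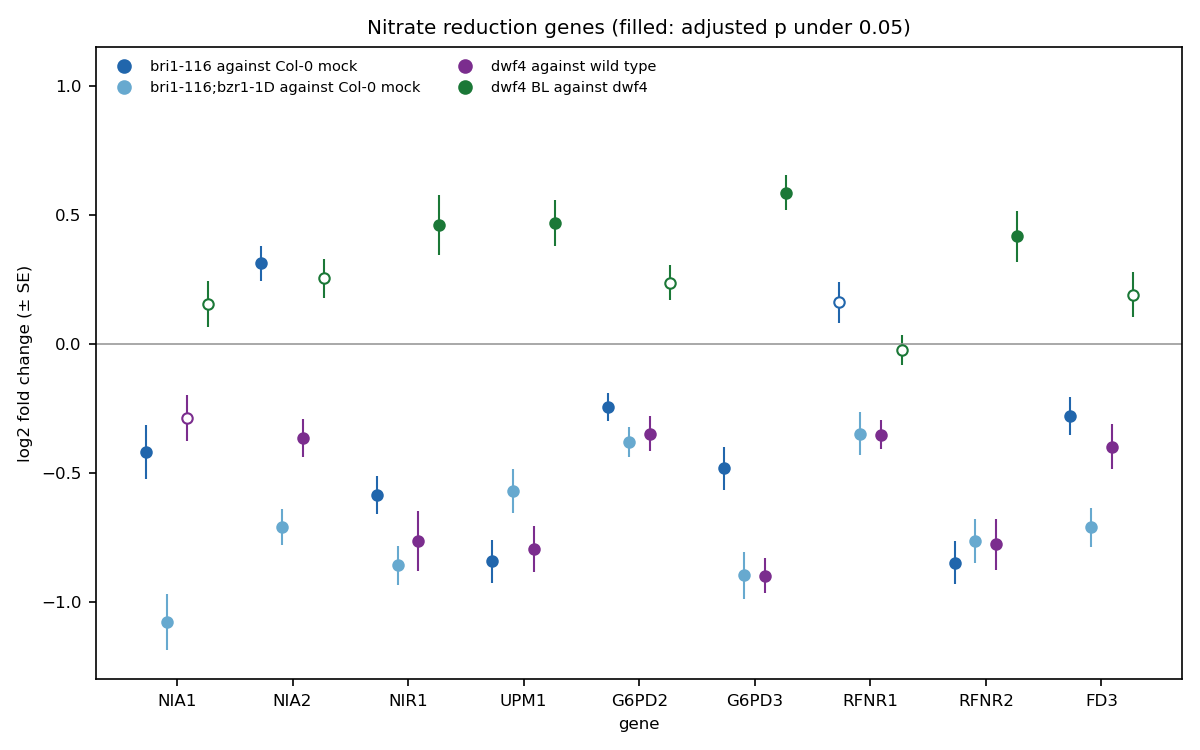
Log2 fold changes with standard errors for the 9 genes of nitrate reduction in 4 comparisons, with filled points for called genes. All 9 points of the double mutant are below 0, and 4 of the 9 points for BL in dwf4 are called above 0.

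Of 13 tested genes for other nitrate and ammonium transport, IAA raised 3 and lowered 9, where 29.9% of all genes rose and 29.3% fell, with a median of −0.82. bri1-116 had 4 higher and 7 lower than mock, where 16.7% and 19.4% of all genes were, and the double mutant had 8 higher and 4 lower than bri1-116, where 21.2% and 19.1% were. The nitrate transporter gene AT3G21670 (NPF6.4) fell by 2.17 with IAA (log2 fold change, adjusted p = 1.9e-07), and SLAH3, a slow anion channel that passes nitrate, fell by 1.48 (adjusted p = 3.6e-10). CLCa, which moves nitrate into the vacuole, read 213 and 221 CPM in mock and 305 and 327 with BL as lower and higher library (0.54 ± 0.05, adjusted p = 1.1e-05). Among 24 nitrogen regulators, IAA raised 7 and lowered 14, where 59.3% of all genes were called. The 3 largest changes were those of BT1 at −2.20 ± 0.13 (adjusted p = 2.6e-10), ANR1, a MADS-box gene of lateral root growth in nitrate, at 1.86 ± 0.51 (adjusted p = 0.0046), and HRS1, a nitrate-induced repressor, at −1.79 ± 0.08 (adjusted p = 1.1e-11). ANR1 was low, at 0.170 and 0.421 CPM in mock and 0.963 and 1.09 with IAA as lower and higher library. ASN1, an asparagine synthetase, read 0.454 and 1.52 CPM in wild type, 2.76 and 5.62 in dwf4 and 22.3 and 35.2 in BL-treated dwf4 as lower and higher library (BL in dwf4, 2.76 ± 0.35, adjusted p = 0.0016). Of the 7 listed genes of glutamate and asparagine metabolism BL in dwf4 raised 3, where 7.86% of all genes rose. These included GLT1, a glutamate synthase, at 0.52 ± 0.05 (adjusted p = 0.00043) and GDH2, a glutamate dehydrogenase, at 0.40 ± 0.06 (adjusted p = 0.0049).

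The genes most like each tested member over the 12 libraries of 101 bp, by Pearson r of log2 CPM, are given as a description. These libraries share 6 groups and their depths. The likeness was 0.993 for NRT1.5 and the homeobox gene BEL10, 0.978 for NRT1.8 and CYP706A2, and 0.980 for NRT2.1 and EDF3. It was 0.967 for NRT1.1 and G6PD2, 0.972 for AMT1;3 and OBF5, and 0.933 for AMT1;2 and ACA11. The lowest was 0.841, for AMT1;1 and RPK1. Among members the most alike were NRT1.1 with AMT1;3, at 0.938, and NRT1.8 with NRT2.1, at 0.920. The values of NRT2.1 rest on 0 to 51 counts per library and on the libraries through which it passed the filter. NRT1.5 was most like NRT1.1 among members, at only 0.295.

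Windows around the annotated starts, from 250 bp before to 50 bp after, were searched on both strands for CGTGCG and CGTGTG (brassinosteroid response elements), CACGTG (the G-box) and TGTCTC and TGTCGG (auxin response elements). These occurred in 1.96%, 6.52%, 7.68%, 14.2% and 5.12% of 27443 promoters. NRT2.1 and NRT2.2 each held CGTGTG, AMT1;3 held TGTCTC and AMT1;5 held CGTGTG and TGTCTC, and the other 6 members held none. The annotation gives AMT1;5 no untranslated region, so its window is set on the coding start and its last 50 bp are coding sequence. The bases before the starts of the member with the largest IAA response and of the member with the largest rise with BL in both lines are printed. Neither stretch holds any of the 5 motifs, since the match in AMT1;3 lies after the start.
NRT1.5 (chr1:11719989-11720238, minus strand): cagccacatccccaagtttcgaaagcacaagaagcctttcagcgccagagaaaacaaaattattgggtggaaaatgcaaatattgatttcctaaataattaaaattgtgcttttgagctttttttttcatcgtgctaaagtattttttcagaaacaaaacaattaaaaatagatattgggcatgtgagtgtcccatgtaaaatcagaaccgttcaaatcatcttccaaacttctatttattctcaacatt
AMT1;3 (chr3:8807461-8807710, minus strand): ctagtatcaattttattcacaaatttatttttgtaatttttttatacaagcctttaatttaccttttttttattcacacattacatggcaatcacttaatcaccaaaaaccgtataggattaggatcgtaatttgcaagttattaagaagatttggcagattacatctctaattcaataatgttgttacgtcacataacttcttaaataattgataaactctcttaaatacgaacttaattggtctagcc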

How the data were processed

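The authors deposited 1 file of raw read counts per gene for each of 18 libraries, made with TopHat 1.4.0, Bowtie and HTSeq against TAIR10, per the submitters' processing notes. Annotation release, strand setting and read filters: not given in the sources used here. The closing lines of each file (reads outside genes, ambiguous or not uniquely placed) were left out of library sizes and tests. All reads in those lines together were 5.87% to 12.1% of a library. That share includes the reads not uniquely placed, which were 3.05% to 9.35% of a library. Both shares were higher in the 36 bp set.

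Counts were tested with edgeR 4.0.16 in R 4.3.3: TMM scaling, genes kept by filterByExpr (minimum count 10, minimum total 15), 1 coefficient per group, quasi-likelihood F test, p-values adjusted by Benjamini-Hochberg over all genes tested. Each read length had its own fit (12 libraries with 101 bp reads, 6 with 36 bp), and all 18 entered one fit only for the difference in BL response. Standard errors are the fold change divided by the root of F. Library totals, DESeq2 size factors, DESeq2 1.42.0, no filter, the replicate number as a block, the compared groups alone, all 18 libraries, the tandem pairs summed and each library left out were tried. A value called in neither setting has no direction to lose. The steps were tested on simulated data. Intervals of count ratios are exact and cover counting error only.

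Members and gene lists were chosen with earlier results of these data known. All 10 members are named, and of each list at most the 3 called genes with the largest change per comparison, apart from NAR2.1, NIA1, NIA2 and NIR1, named in further comparisons for their roles. For likeness the 3 closest genes with a symbol and a mean of at least 2 CPM were ranked and the closest named. Sequences and positions come from the RefSeq genome and annotation of TAIR10.1, matched by locus identifier, since the count files hold no coordinates.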

Additional observations from a re-analysis of the deposited data

How the results depend on the processing

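Over 1036 member values recomputed under the alternatives, 990 kept their side of the threshold, 30 lost a call, 16 gained one and 0 reversed. Direction was judged only for values called in either setting. For BL in Col-0 the count of called members was 4 with no low-count filter and 1 with the compared groups alone, against 2, and 1 to 3 with each library left out. For BL added to IAA it was 2 with library totals and 2 with no low-count filter, against 1, and 0 to 2 with each library left out. The interaction gave 1 with no filter, against 0 (NRT1.5). For BL in dwf4 it was 1 with the compared groups alone and 1 with DESeq2, against 2, and 0 to 3 with each library left out. The difference in BL response gave 0 to 1 with each library left out. The shares of all genes called under another setting or with a library left out are not given here. These counts therefore describe the fits and are not a result about the members. The cause of these moves was not tested.

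Replicate numbers did not pair the libraries: deviations of same-numbered libraries correlated at −0.106 to 0.110 in 15 pairs of groups at 101 bp, 1 of them over 0.1, and at −0.139 to 0.018 in 3 pairs at 36 bp. With the replicate number as a block, the count for BL in dwf4 was 1, since AMT1;2 gave 0.30 at an adjusted p of 0.051; the block changed no other call of a member. NRT1.1 in the double mutant against bri1-116 lost its call with all 18 libraries (adjusted p = 0.13), and NRT1.1 in BL-treated dwf4 against wild type lost it with DESeq2 (adjusted p = 0.11). With 2 libraries per group and counts of 0 to 6 in most libraries, NRT2.4 and AMT1;5 could not be tested.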
